A study of Mus musculus with 6 samples.

Results

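The genes described here are those of the interferon response and of antiviral sensing: the receptors and kinases that receive interferon, the transcription factors they act on, the sensors of foreign nucleic acid and a range of interferon-inducible effectors. They were taken by symbol from a list of 43 genes, of which 41 were found among the 17006 genes of each table. Oas1a and Oas2 were not analysed here. Bulk RNA was sequenced from primary neural stem cells of the subventricular zone, the stem cell niche beside the lateral ventricles, of C57BL/6 mice, after culture in proliferation medium. The young group came from mice of 2 months and the aged group from mice of 15 to 18 months, with 3 libraries each and no other treatment or genotype in the labels. Tissue of 5 mice was pooled before dissociation. The labels do not say whether the libraries of a group come from separate pools or cultures, so p-values measure only the spread between these libraries, which may be technical. The values describe cells after culture, not the tissue.

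As background, type I interferons bind the IFNAR1 and IFNAR2 receptor pair, which signals through the kinases JAK1 and TYK2. These phosphorylate STAT proteins, which join IRF9 and bind an interferon-stimulated response element at inducible genes. Interferon gamma uses IFNGR1 and IFNGR2. Cells make type I interferon when sensors such as RIG-I (Ddx58) and MDA5 (Ifih1), through the adaptor MAVS, or cGAS, through STING (Tmem173), detect foreign nucleic acid. Stem cells are known for holding some interferon-inducible genes at a steady level without stimulation, and interferon responses have been described in the aged subventricular zone.

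Levels are in FPKM, which divides fragments by transcript length and library size, so they can be set side by side between genes. Each library held about 5215000 to 5436000 counted reads, estimated from the steps between low values, and 15116 to 15238 genes above 0. Neural stem cell markers were abundant in all 6 libraries, with Fabp7 at 2662 to 2878 FPKM, Nes at 255.8 to 275.2 FPKM and Sox2 at 165.0 to 185.6 FPKM. Of 14 microglial and macrophage markers, 6 were in the tables and only the lysosomal Cd68 had a mean above 1 FPKM. Ptprc, which encodes the leukocyte antigen CD45, lay at 0 in 4 libraries and at 0.04 FPKM in the others. Pearson correlations between libraries, across genes that are not independent replicates, ran from 0.986 to 0.990.

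All receptors, kinases and STAT genes of the set were expressed in these cells, while the effectors ranged from near 0 to the highest level of the set. Of the 41 genes, 25 had a mean of at least 1 FPKM over the 6 libraries and 16 lay below it. That is 39.0% below, against 30% of all genes in the tables. All 7 receptors, kinases and STAT genes passed 1 FPKM, as did 3 of 4 interferon regulatory factors and 4 of 7 sensors and adaptors. Of the effectors that act on RNA, 2 of the 6 analysed passed it (Adar and Ifit2), and of the effectors that act at membranes or as GTPases 6 of 9. Ifitm3 was the most abundant gene of the set and Ifitm2 the second, and together they held 35.4% of the summed FPKM of the 41 genes.

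**Figure D1:**
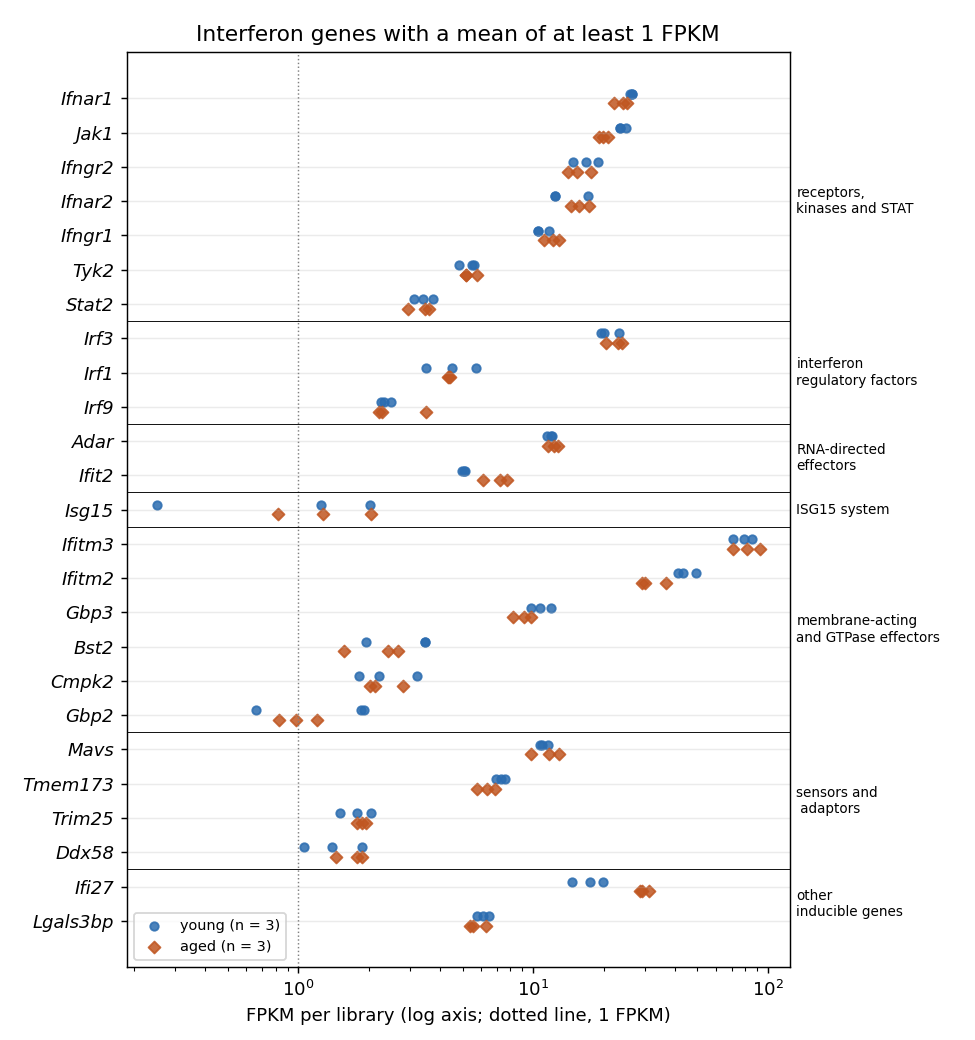
FPKM in each library (horizontal log axis) of the 25 interferon genes that average 1 FPKM or more, grouped by role; circles are the 3 young and diamonds the 3 aged libraries. Ifitm3 is highest at 70.6 to 92.0 FPKM, and Isg15 and Gbp2 straddle 1 FPKM.

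Between the ages, 1 gene of the set rose and 0 fell by limma with Benjamini-Hochberg adjustment over all 11912 genes that averaged 1 FPKM or more (threshold 0.05). The gene that rose was Ifi27, which encodes a small membrane protein and is listed here among the other inducible genes. Its response to interferon in these cells was not tested. The other 24 genes tested did not pass, with limma adjusted p from 0.0742 to 0.975. Over all genes tested, 0.722% were called, 0.327% as higher and 0.395% as lower in aged libraries, so a single call among 25 genes rests on that gene alone. The median log2 change of the 25 genes was 0.02, beside 0.00 for all genes tested, with 13 genes higher and 12 lower in aged libraries. Their median absolute log2 change was 0.13, beside 0.07 for all genes tested and 0.10 for 43 other genes of the pathway, described below. These lists were not matched for level or reads, on which the spread of a log2 change depends. Log2 changes are of FPKM + 1, aged minus young, which understates the change of low genes. At an unadjusted p under 0.05, 2 genes were higher and 4 lower, which is 6 of 25 beside 11.9% of all genes tested.

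**Figure D2:**
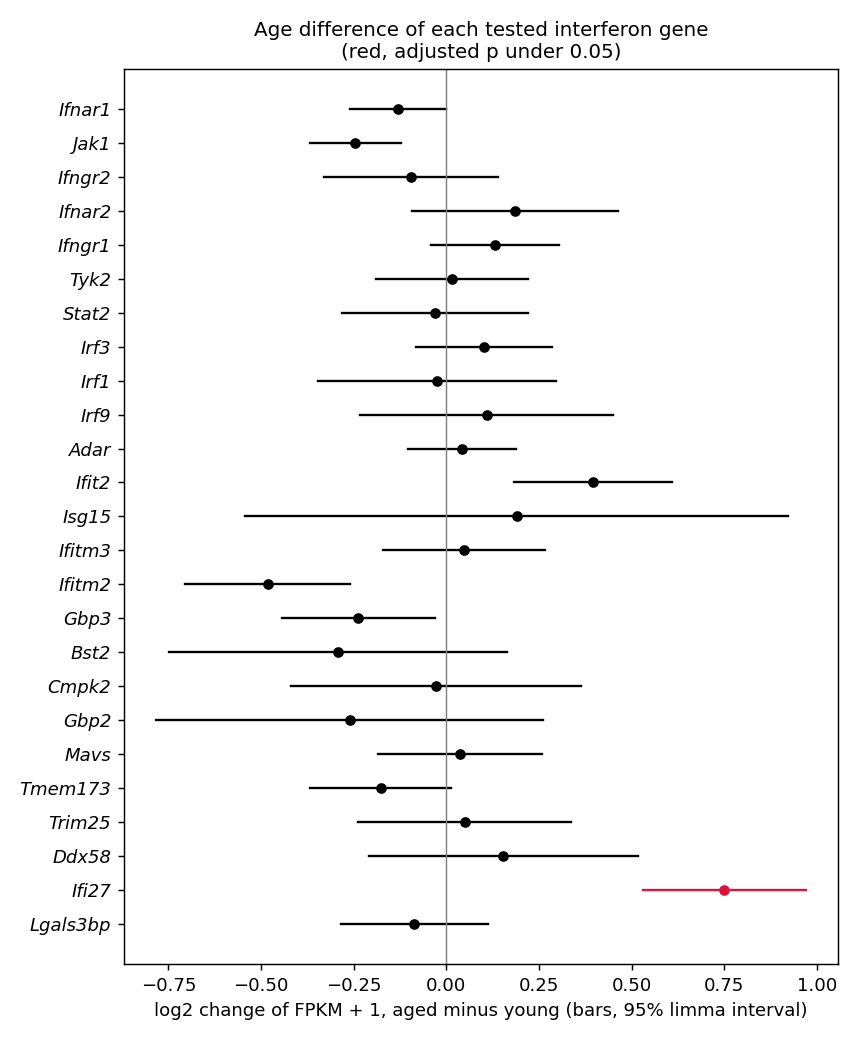
Log2 change of FPKM + 1 (horizontal axis, aged minus young) of the 25 tested genes, with bars for the 95% interval from limma. Ifi27, in red, is the gene with an adjusted p under 0.05, and its interval runs from 0.53 to 0.97.

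Ifi27 (gene 52668, GRCm38 chromosome 12, 103434189 to 103440245) lay at 19.76, 14.63 and 17.41 FPKM in the young group and at 31.13, 28.40 and 29.11 FPKM in the aged group. Every aged library was above every young one. The means were 17.3 ± 2.57 and 29.5 ± 1.42 FPKM (SD, n = 3 each), a ratio of 1.71. The log2 change was 0.75 with a standard error of 0.10 (limma adjusted p = 0.0119), and 35 of the 11912 tested genes had a smaller p. The value rests on about 69 to 94 estimated reads in a young and 129 to 145 in an aged library. The call was lost without young 3 (limma adjusted p = 0.0515), without aged 1 (0.0549) and when limma's trend of variance on level was left out (0.0809), while the log2 change ran from 0.64 to 0.85 over the 16 alternatives.

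The RefSeq extents of Ifi27 and the related Ifi27l2a overlap, although their exons in GENCODE M21 lie on opposite strands and share 0 bases. Ifi27l2a lay below Ifi27 in each library, at 0.40, 0 and 0.40 FPKM in the young group and 0.41, 0.83 and 1.23 FPKM in the aged group. Its exons cover 463 bases, so these levels rest on at most a few reads a library. The values of 0.40 and 0.41 FPKM cannot be told apart at that depth. The gene averaged under 1 FPKM and was not tested. The sources used here do not say whether counting used strand. None of the stretches of 50 bases in the transcripts of Ifi27 occurs in transcripts of another gene (0%).

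In bulk RNA, fewer cells of a type and less RNA per cell cannot be told apart. Beside Ifi27, the summed level of the 6 fibroblast and pericyte markers found lay at 0.45 to 0.64 FPKM in the young group and 2.68 to 3.72 FPKM in the aged group, with Col1a1 the main part (0.31 to 0.54 and 2.04 to 2.81 FPKM). Col1a1, a fibrillar collagen, rose with a log2 change of 1.28 (limma adjusted p = 0.0107). Col1a2 (0 to 0.04 and 0.54 to 0.75 FPKM) and Col3a1 (0 to 0.06 and 0.10 to 0.16 FPKM) did not overlap between the ages either. They rest on about 55 and 13 estimated reads in all, and neither was tested, as their means were under 1 FPKM. Dcn, Pdgfrb and Rgs5 stayed at 0 to 0.10 FPKM. The 6 microglial and macrophage markers found summed to 3.07 to 4.23 FPKM in the young group and 3.45 to 4.08 FPKM in the aged group. Of these 6 only Fcer1g did not overlap between the ages, at 0 in the young and 0.28 to 0.57 FPKM in the aged libraries, on about 4 estimated reads in all. The 3 T and NK cell markers found summed to 0.08 to 0.48 and 0.12 to 0.81 FPKM, and the 6 endothelial ones to 2.52 to 4.16 and 3.51 to 3.71 FPKM. Within the endothelial list, Egfl7 lay at 1.25 to 1.72 FPKM in the young group and 2.42 to 2.71 FPKM in the aged group (limma adjusted p = 0.147), and Flt1 at 0.72 to 1.21 and 0.26 to 0.59 FPKM. The part of these cell types in the level of Ifi27 was not tested.

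Among the 25 tested genes, 7 had young and aged libraries that did not overlap, 2 with aged higher and 5 with aged lower. Over all genes tested, 17.6% did not overlap. Ifi27 and Ifit2 were higher in the aged libraries, and Ifnar1, Jak1, Tmem173, Ifitm2 and Gbp3 lower. Apart from Ifi27, none of the 7 passed limma over all genes.

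**Figure D3:**
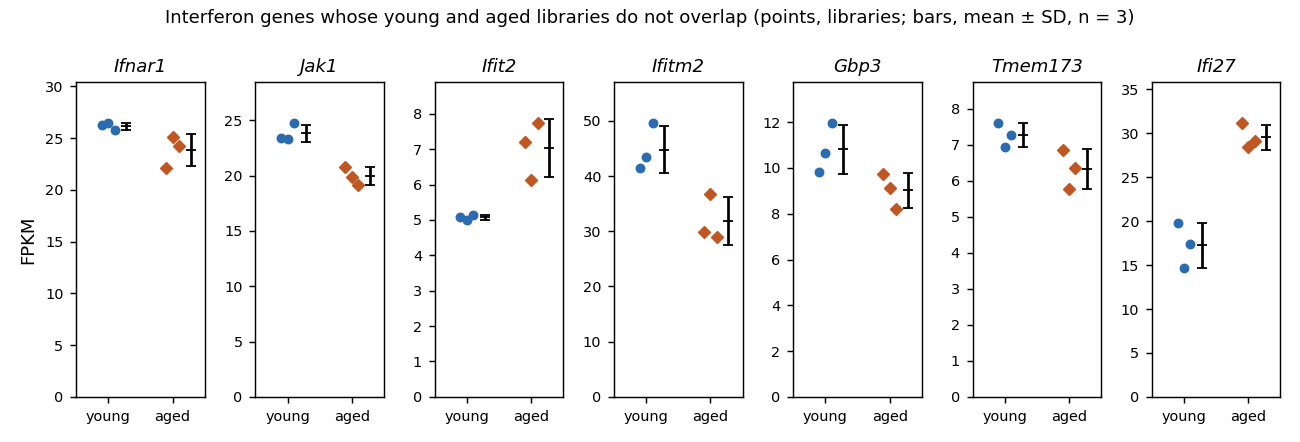
FPKM (vertical axes from 0, a scale for each gene) of the 7 tested genes whose young (circles) and aged (diamonds) libraries do not overlap, with bars for the mean ± SD of 3 libraries. The gap is widest for Ifi27, from 19.76 to 28.40 FPKM, and narrow for Gbp3, from 9.74 to 9.83 FPKM, and Tmem173, from 6.87 to 6.95 FPKM.

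The receptor subunits were all expressed at 10 to 27 FPKM. Those of the type I receptor and 1 of the gamma receptor lie in a cluster on chromosome 16: Ifnar2 (91372783 to 91405589), Ifnar1 (91485032 to 91510523) and Ifngr2 (91547059 to 91564007) fall within 191 kb, with Il10rb, a receptor chain of other cytokines, between Ifnar2 and Ifnar1 (GRCm38 coordinates of RefSeq). Ifnar1 lay at 26.24, 26.43 and 25.78 FPKM in the young group and 22.13, 25.13 and 24.20 FPKM in the aged group. The log2 change was -0.13 with a standard error of 0.06 (limma adjusted p = 0.419). The partner subunit Ifnar2 lay at 17.09, 12.32 and 12.40 FPKM in the young group and 14.55, 17.28 and 15.72 FPKM in the aged group, where young 1 lies among the aged values. Ifnar1 exceeded Ifnar2 by 1.54, 2.15 and 2.08 times in young and 1.52, 1.45 and 1.54 times in aged libraries. That ratio was high in young 2 and young 3 and alike in the remaining 4 libraries.

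The gamma receptor showed no such separation. Ifngr1, the ligand-binding chain, had means of 10.9 ± 0.684 FPKM in the young group and 12.1 ± 0.885 FPKM in the aged group (SD, n = 3 each), and Ifngr2, the signalling chain, 16.8 ± 2.03 and 15.7 ± 1.83 FPKM. The limma adjusted p was 0.571 for Ifngr1 and 0.794 for Ifngr2, and the ranges of both overlapped between the ages.

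Of the kinases, Jak1 (gene 16451, chromosome 4, 101151974 to 101265282), which serves both receptor types, lay at 23.41, 23.30 and 24.72 FPKM in the young group and at 20.74, 19.91 and 19.13 FPKM in the aged group. All aged values were below all young ones. The log2 change was -0.25 with a standard error of 0.05 and a 95% interval of -0.37 to -0.12, with a limma adjusted p of 0.0985, above 0.05 and so not called. Tyk2, the other kinase of the type I receptor, lay at 4.83 to 5.57 FPKM in the young group and 5.17 to 5.78 FPKM in the aged group. Stat2, which carries the signal to the nucleus, lay at 3.12 to 3.73 and 2.92 to 3.61 FPKM. The log2 change of Tyk2 was 0.02 (95% interval -0.19 to 0.22) and that of Stat2 -0.03 (-0.28 to 0.22).

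The interferon regulatory factors covered a wide range of levels. Irf3, which acts directly below the sensors and needs no induction, was the highest, at 20.09, 23.10 and 19.37 FPKM in the young group and 20.49, 22.93 and 23.90 FPKM in the aged group. Irf1, an inducible factor of the gamma response, had a mean of 4.56 ± 1.12 FPKM in the young group and 4.39 ± 0.0458 FPKM in the aged group (SD, n = 3 each). Its young libraries spread from 3.48 to 5.71 FPKM, while the aged ones kept to 4.35 to 4.44 FPKM. These values rest on about 40 to 65 estimated reads in a young and 48 to 50 in an aged library. The difference in spread was not tested. Irf9, the DNA-binding partner of STAT2, lay at 2.21 to 2.49 FPKM in 5 libraries and at 3.50 FPKM in aged 2. The limma adjusted p of Irf3, Irf1 and Irf9 was 0.698, 0.970 and 0.849.

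Irf7, the inducible amplifier of type I interferon production, was near 0. It was listed at 0, 0.10 and 0 FPKM in the young group and at 0.21, 0.11 and 0.31 FPKM in the aged group, about 8 estimated reads in all 6. The groups did not overlap, but the highest young and the lowest aged library each rest on about 1.1 estimated reads, and the gene was not tested because its mean was under 1 FPKM.

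Sensing genes were expressed mainly as adaptors. Mavs, the mitochondrial adaptor of the RNA sensors, lay at 10.65 to 11.59 FPKM in the young group and 9.74 to 12.92 FPKM in the aged group. Tmem173, which encodes STING, lay at 7.60, 6.95 and 7.29 FPKM in the young group and at 6.87, 5.78 and 6.35 FPKM in the aged group. Its log2 change was -0.18 with a standard error of 0.08 (limma adjusted p = 0.458). Its lowest young and highest aged values were separated by less than the SD of either group.

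The RNA sensors themselves were low. Ddx58 lay at 1.39, 1.06 and 1.87 FPKM in the young group and 1.87, 1.77 and 1.45 FPKM in the aged group, and Trim25, the ubiquitin ligase linked to it, at 1.51 to 2.03 FPKM in all 6. Ifih1 lay at 0.07 to 0.24 FPKM and Dhx58, the third helicase of the family (LGP2), at 0.15 to 0.60 FPKM. Zbp1, a sensor of Z-form nucleic acid, was above 0 in aged 1 only, at 0.25 FPKM or about 1.8 estimated reads.

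The 6 effectors that act on RNA split by level. Adar, the RNA-editing enzyme, lay at 11.40 to 12.07 FPKM in the young group and 11.54 to 12.77 FPKM in the aged group (log2 change 0.04, 95% interval -0.10 to 0.19). Oasl1 and Oasl2, of the oligoadenylate synthetase family, stayed at 0 to 0.23 FPKM. The 3 Ifit genes, whose proteins bind viral RNA, lie in a cluster on chromosome 19 but differed in level. Ifit2 (gene 15958, 34550550 to 34576534) lay at 5.09, 4.99 and 5.14 FPKM in the young group and at 7.21, 6.13 and 7.73 FPKM in the aged group, so that all aged values were above all young ones. The log2 change was 0.40 with a standard error of 0.09 and a 95% interval of 0.18 to 0.61, on about 103 to 158 estimated reads a library, with a limma adjusted p of 0.130. Over the alternatives that adjusted p ran from 0.0690 to 0.326, so Ifit2 was called in none of the 16.

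Ifit1 and Ifit3 did not share that level. Ifit1 (34640889 to 34650009) was listed at 0 in 5 libraries and at 0.14 FPKM in aged 2. Ifit3 (34583119 to 34588982) was listed at 0 in 4 libraries, at 0.46 FPKM in young 3 and at 0.47 FPKM in aged 2. Its value is uncertain, since 51.2% of its stretches of 50 bases also occur in its copy Ifit3b, which lay at 0 to 0.44 FPKM.

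Matches of the response element were found both in expressed genes of the set and in genes near 0. RefSeq promoters (GRCm38.p6, 250 bases before to 50 after a start) were found for 33 of the 41 genes. Ifi27, Mx1, Mx2, Usp18, Dhx58, Tmem173, Rtp4 and Zbp1 had no entry. For 27 of the 39 starts, the first bases after the start occur in a GENCODE M21 transcript of the same gene. The window of Ifitm2 (140955912 to 140956211, minus strand) lies inside the extent of the gene, which ends at 140959686, so it is not at the outermost start. The core of the interferon-stimulated response element, searched as GAAA, any 2 bases and GAAA on both strands, was found in 12 of the 33 genes, beside 3.44% of all 32851 promoters of that length and 3.6% of the genes of the tables that had a promoter. It was in 8 of 23 genes averaging 1 FPKM or more (Stat2, Isg15, Ddx58, Bst2, Ifitm2, Ifitm3, Gbp2 and Gbp3) and in 4 of 10 below it (Ifit1, Ifit3, Rsad2 and Ifih1). The interferon gamma element TTCNNNGAA, searched the same way, was in 8 of the 33 genes, beside 8.3% of all promoters. For Ifit2, no match of the response element lay in either window, which says only that these letters are not in them. A match is a description of letters, not of binding.

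The stretches with the matches are shown for a pair of expressed genes that were lower in aged libraries (Ifitm2 and Gbp3), for Isg15 near 1 FPKM, and for 3 genes near 0, so that like elements can be seen beside unlike levels. They run 5′ to 3′ on the gene's strand, 10 bases either side, with the matches in capitals (adjoining capitals are matches that overlap).
Ifitm2: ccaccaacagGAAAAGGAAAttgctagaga
Gbp3: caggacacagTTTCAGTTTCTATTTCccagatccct
Isg15: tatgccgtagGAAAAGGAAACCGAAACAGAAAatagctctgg
Ifit1: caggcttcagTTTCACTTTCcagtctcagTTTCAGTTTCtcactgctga
Ifit3: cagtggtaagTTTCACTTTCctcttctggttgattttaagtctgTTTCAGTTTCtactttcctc
Rsad2: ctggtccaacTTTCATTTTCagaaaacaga
Their positions are chr7:140955988-140956017 (minus strand), chr3:142559989-142560024 (plus), chr4:156200865-156200906 (minus), chr19:34640775-34640823 (plus), chr19:34583363-34583426 (plus) and chr12:26456553-26456582 (minus). Isg15 carries 3 overlapping matches, and Ifit1 and Ifit3 carry 2 each that do not overlap. Over the 6 libraries, the mean level of these genes ran from 0.0233 FPKM for Ifit1 to 38.3 FPKM for Ifitm2.

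Of the effectors at membranes, the Ifitm proteins, which block fusion of viruses with endosomes, led. Ifitm2 (gene 80876, chromosome 7, 140954837 to 140959686) lay at 41.40, 43.45 and 49.54 FPKM in the young group and at 29.88, 36.82 and 28.91 FPKM in the aged group. All aged values were below all young ones, with means of 44.8 ± 4.23 and 31.9 ± 4.31 FPKM (SD, n = 3 each). The log2 change was -0.48 with a standard error of 0.10 and a 95% interval of -0.70 to -0.26, with a limma adjusted p of 0.0742, which was under 0.05 only without aged 2 (0.0289) and ran to 0.244 over the alternatives. Ifitm3, of the same cluster on chromosome 7 (gene 66141, 141009590 to 141010744), lay at 70.95, 85.09 and 79.07 FPKM in the young group and at 81.23, 70.61 and 91.99 FPKM in the aged group, with a log2 change of 0.05 (95% interval -0.17 to 0.27). Ifitm3 exceeded Ifitm2 by 1.71, 1.96 and 1.60 times in young and by 2.72, 1.92 and 3.18 times in aged libraries, where aged 2 lies within the young range. The value of Ifitm2 is uncertain, because 48.5% of its stretches of 50 bases occur in transcripts of 7 other genes, whereas 10% of those of Ifitm3 do.

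The guanylate-binding GTPases, targets of interferon gamma, were led by Gbp3 (gene 55932, chromosome 3, 142560016 to 142573213). It lay at 9.83, 10.67 and 11.95 FPKM in the young group and at 9.74, 9.11 and 8.20 FPKM in the aged group. Its log2 change was -0.24 with a standard error of 0.09 (limma adjusted p = 0.344). Gbp2 was among the genes next to 1 FPKM. It lay at 1.84, 1.91 and 0.66 FPKM in the young group and at 0.83, 0.98 and 1.20 FPKM in the aged group, with young 3 the lowest of all 6.

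Bst2, which encodes the virus tether tetherin, lay at 1.95 to 3.46 FPKM in the young group and 1.56 to 2.65 FPKM in the aged group. Cmpk2, a mitochondrial nucleotide kinase, lay at 1.81 to 3.21 and 2.02 to 2.79 FPKM. Rsad2 (viperin), its neighbour on chromosome 12, stayed at 0.05 to 0.33 FPKM, which is far below Cmpk2 in each library. Mx1 and Mx2, the dynamin-like antiviral GTPases, stayed at 0 to 0.09 and 0.15 to 0.51 FPKM.

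Isg15, the ubiquitin-like modifier that is strongly induced by type I interferon, was also next to 1 FPKM. It lay at 1.25, 0.25 and 2.01 FPKM in the young group and at 0.82, 2.03 and 1.28 FPKM in the aged group, about 5, 1, 8, 3, 8 and 5 estimated reads in that order. The 2 groups overlapped over most of their range, and the 95% interval of the log2 change, -0.54 to 0.92, was the widest of the 25. Usp18, which removes ISG15 and dampens the type I receptor, was listed at 0 in 3 libraries and reached 0.21 FPKM. Lgals3bp, a secreted glycoprotein of the remaining inducible genes, lay at 5.79 to 6.48 FPKM in the young group and 5.37 to 6.27 FPKM in the aged group.

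The 16 genes under 1 FPKM were Irf7, Ifit1, Ifit3, Oasl1, Oasl2, Mx1, Mx2, Usp18, Rsad2, Ifih1, Dhx58, Ifi35, Ifi44, Rtp4, Zbp1 and Xaf1. None of them exceeded 0.70 FPKM in any library, and 11 were listed at 0 in at least 1 library. Together they held about 13, 33 and 29 estimated reads in the young and 36, 40 and 30 in the aged libraries, or 181 in all, and 10 of the 16 had at most 10 estimated reads over the 6 libraries. Young 1 was the lowest of the 6, with 11 of the 16 genes listed at 0, against 4 to 7 in the other libraries. With no filter on low values, limma called 1 of the 41 genes, which was Ifi27 (adjusted p = 0.0471), beside 59 of all 17006 genes. None of these 16 was called, which says little for genes with so few reads. Ifi35 and Rtp4, at 0 to 0.41 and 0.12 to 0.70 FPKM, and Ifi44 and Xaf1, at 0 to 0.19 and 0 to 0.22 FPKM, complete the set.

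**Figure D4:**
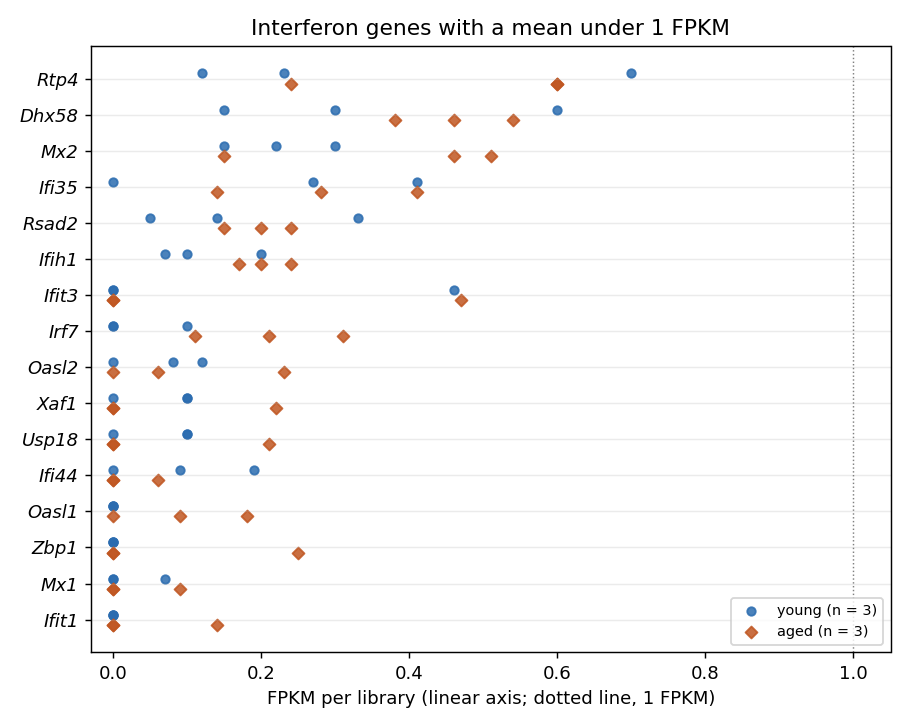
FPKM in each library (horizontal linear axis) of the 16 interferon genes with a mean under 1 FPKM; circles are the 3 young and diamonds the 3 aged libraries. All points lie at or under 0.70 FPKM, and many lie at 0 in both groups.

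Other genes of the pathway, from a list of 78, gave 0 calls by limma in either direction (64 found, 43 tested, with 1 higher and 1 lower at an unadjusted p under 0.05). Over all genes tested, 0.722% were called and 11.9% had an unadjusted p under 0.05, so 0 calls among 43 genes is near the share of all genes. The 10 interferon ligands of that list were not analysed here. The 43 genes tested had a median log2 change of 0.02. Mb21d1, which encodes cGAS, lay at 1.54 to 2.17 and 1.46 to 2.34 FPKM. The kinase Tbk1, which activates IRF3, lay at 8.68 to 10.19 and 9.73 to 10.10 FPKM.

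The tested pathway gene with the smallest p was Stat3, a transcription factor of cytokine signalling, at 51.49, 50.98 and 49.96 FPKM in the young group and 47.57, 44.90 and 45.77 FPKM in the aged group (limma adjusted p = 0.223). Ifi30, a lysosomal thiol reductase of antigen processing, lay at 1.87, 1.49 and 2.05 FPKM in the young group and at 2.10, 3.65 and 3.98 FPKM in the aged group (limma adjusted p = 0.272). Gbp7, the neighbour of Gbp3, was named after its values were seen. It lay at 4.38, 4.39 and 4.43 FPKM in the young group and at 3.75, 3.74 and 3.74 FPKM in the aged group, with a limma adjusted p of 0.431. Transcripts of Gbp3 and Gbp7 share 3.8% of the stretches of 50 bases of Gbp3.

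**Figure D5:**
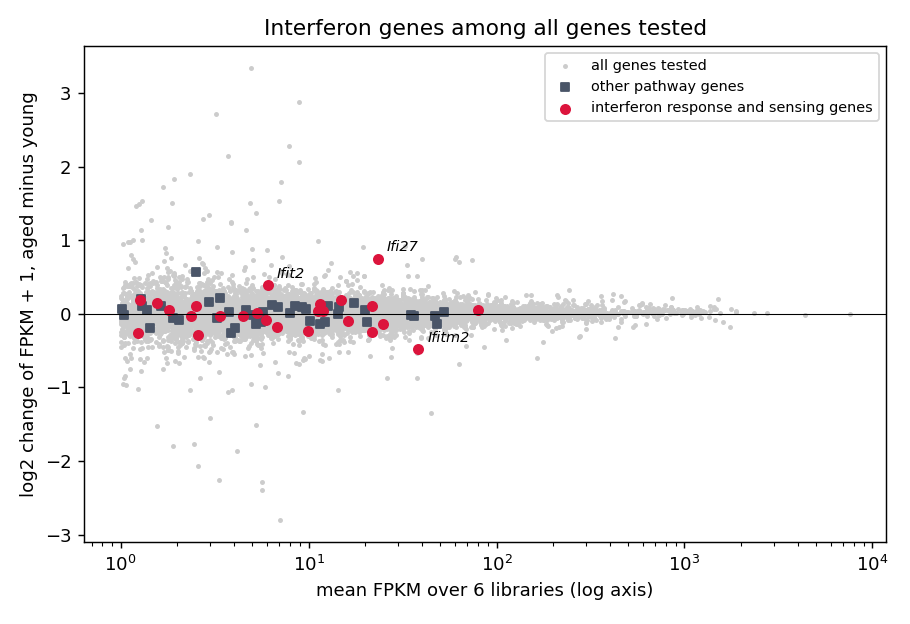
Log2 change of FPKM + 1 (vertical axis, aged minus young) against mean FPKM (horizontal log axis) for all 11912 genes tested in grey, the 43 other pathway genes as squares and the 25 interferon genes in red. Ifi27 stands at 0.75, Ifit2 at 0.40 and Ifitm2 at -0.48, and the other 22 red points lie closer to 0. Among the squares, Ifi30 is highest at 0.57.

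The intervals give the size of difference that each comparison allows, given only the spread between these libraries, which may be technical. The 1 added to FPKM also draws in the change of low genes. For Isg15 the log2 change was 0.19 with 1 added and 0.48 with 0.1 added. For 19 of the 25 genes the 95% interval of limma lay within a 1.5-fold change of FPKM + 1 in either direction, and for all 25 within a 2-fold change. The genes with a 1.5-fold change inside their interval were Ifit2, Isg15, Bst2, Ifitm2, Ifi27 and Gbp2. The ratio of group means ran from 0.683 for Gbp2 to 1.71 for Ifi27, and 20 of the 25 genes had a ratio from 0.8 to 1.25.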

How the data were processed

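The authors deposited an FPKM table for each of the 6 libraries, with 2 decimals, per the file headers. Total RNA was depleted of rRNA, per the labels' protocols. The submitters' processing notes name TopHat, Cuffdiff and mm10, with no role or version. Annotation, strand, filters and scaling between libraries are not given in the sources used here.

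The members and lists were chosen with earlier results of these data known. Ages were compared with limma 3.58.1 under R 4.3.3 (linear fit, eBayes with a trend, no covariates, two-sided) on log2(FPKM + 1) for genes averaging 1 FPKM or more, with Benjamini-Hochberg adjustment over all 11912. No count test was used. Genes of the set given in each library include those called, those whose groups did not overlap and those next to 1 FPKM. The highest of each role was also given so, except Mavs and Adar, which were given by range. Estimated reads multiply FPKM by GENCODE M21 transcript length and a depth read from single-read steps. Between 3.5 and 10.5 reads, 51.9% of values of genes with 1 transcript were no more than 0.15 from a whole read, where an even spread gives 30%. They are approximate and cover no replicate error. Coordinates are from RefSeq GRCm38.p6, which held 16962 of the 17006 identifiers. Alternatives covered the pseudocount, the filter, 3 scalings, limma's options, a replicate block and each library left out. A gene of the pathway list is not reported here by name. Figures were drawn with matplotlib 3.10.9 in Python 3.11.15.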

Additional observations from a re-analysis of the deposited data

How the results depend on the processing

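Over 16 alternatives, 372 of 391 log2 changes of the 25 interferon genes kept their direction and their side of the threshold. Among the 10 alternatives that kept all libraries, Ifi27 without limma's trend (adjusted p = 0.0809) was the exception. Direction could not turn where only the filter, limma's options or the block changed, since each log2 change stays the same there. All 15 reversals came from leaving out a library. Keeping a side of the threshold says little, as 18 of the 25 genes had a limma adjusted p over 0.5. Without the trend, 11 genes were called over all genes tested (7 higher, 4 lower) and 0 in the set. With no filter, 29 were called lower and the median log2 change of all 41 genes was 0.037. Deviations of same-numbered libraries correlated at 0.00795, -0.0719 and 0.108 for numbers 1 to 3, and only number 3 was closest to its own, so the numbers are not taken as pairs. With the replicate number as a block, 22 genes were called over all genes (11 higher, 11 lower), and the adjusted p of Ifi27 was 0.0244. With 1 library left out, 39 to 70 genes were called over all genes (17 to 37 higher, 22 to 33 lower; the total fell by over 1.5 times without any 1 young library and without aged 1), and 0 to 2 in the set: 0 without young 3 or aged 1, and 2 (Ifi27 and Ifitm2) without aged 2. The median log2 change of the set then ran from -0.047 to 0.053. The direction turned in 9 genes, all far from the threshold, with log2 changes of -0.039 to 0.048 for Tyk2, -0.080 to 0.039 for Stat2, -0.17 to 0.12 for Irf1, -0.049 to 0.19 for Irf9, -0.16 to 0.47 for Isg15, -0.049 to 0.14 for Mavs, -0.045 to 0.14 for Ifitm3, -0.16 to 0.14 for Cmpk2 and -0.020 to 0.12 for Trim25. The cause was not tested. Depth limits the genes under about 1 FPKM, which hold a few reads a library.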
